A study of Mus musculus with 6 samples.

Results

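The 9 genes described here encode enzymes and helper proteins that fold proinsulin and cut and finish prohormones in pancreatic islets: Ero1lb, Ero1l, Prdx4, Pcsk1, Pcsk2, Pcsk1n, Scg5, Cpe and Pam. They were chosen by their gene names on the array. They make up 9 of 31829 gene names on the array, and all 9 were among the 22775 gene names bright enough to be tested. A total of 12 probes measure them, because Pcsk2 has 2 probes and Cpe has 3.

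In the endoplasmic reticulum of an islet cell, a newly made prohormone folds and closes its disulfide bonds with the help of protein disulfide isomerases. Oxidases of the Ero1 family and the peroxiredoxin Prdx4 pass on the oxidizing power those isomerases use. In secretory granules, the convertases Pcsk1 and Pcsk2 then cut the prohormone after pairs of basic residues, Cpe trims the exposed basic residues, and Pam turns a terminal glycine into an amide on peptides that carry one, such as islet amyloid polypeptide. Insulin itself needs the convertases and Cpe but no amide.

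The mutant mice were Nkx6.1fl/-;Pdx1-CreERTM, so that 1 Nkx6-1 allele was null from the start and the other was floxed. The controls were littermates of genotype Nkx6.1fl/+;Pdx1-CreERTM, which keep 1 wild-type allele that the recombinase cannot remove. Nkx6-1 is a transcription factor of beta cells, and the study asked which islet genes depend on it in mature islets. All mice were males of a cross between an Nkx6.1-flox line (mixed FVB/N x C57Bl/6J) and a Pdx1-CreERTM line (mixed Cd1 X C57Bl/6J). All carried the recombinase, which tamoxifen activates and the Pdx1 promoter drives, and all received 4 injections of tamoxifen in corn oil, at 2 mg per 25 g, between the ages of 4 and 6 weeks. Islets were isolated at 6 weeks, and each RNA sample came from 2 pancreata of 1 genotype. There were 3 mutant and 3 control samples, each on its own single-colour Agilent array.

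Throughout, a level is the log2 of the background-corrected spot signal minus the 75th percentile of the same array, and a difference is mutant minus control on that log2 scale. A gene was called where limma's adjusted p (Benjamini-Hochberg over all 22775 genes) was under 0.05. Levels of different probes are not compared, since probes bind with different strength.

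The whole arrays set the background for these genes. Arrays of the same group correlated at 0.979 to 0.995 over all genes, and arrays of different groups at 0.974 to 0.984. Slide 1 held mutants 2 and 3 and control 1, and slide 2 held mutant 1 and controls 2 and 3. The Nkx6-1 probe read 4.32, 4.06 and 4.45 in mutants, against 4.79, 4.85 and 4.64 in controls, a difference of -0.48 (SE 0.14, limma adjusted p = 0.131). It was lower on each mutant array but was not called, and the position of the probe relative to the floxed segment is not given in the sources used here. The defining hormones of the labelled tissue were present in both groups, with mean levels of 8.09 in mutants and 7.83 in controls for Ins1 and of 8.22 in mutants and 7.98 in controls for Gcg. Both probes had saturated pixels, on 5 arrays for Ins1 and on 4 for Gcg, so these levels show presence more than a difference. Of 29 tested acinar genes of 30 listed, none was called, but their mean level relative to controls was -0.81, 0.94 and 1.91 on mutant arrays, against -0.28, -0.07 and 0.36 on control arrays. Of 10 beta cell genes, 4 were called lower and none higher, while over all genes tested 1.12% were called lower and 1.41% higher. The median difference of the 10 was -0.79, with 3 positive, the hormone genes Ins1, Ins2 and Iapp. The mean relative level of the 10 was -0.73, -0.89 and -0.95 on mutant arrays, against 0.05, -0.04 and -0.01 on control arrays. The alpha cell list had 1 of 10 tested genes called, Etv1 (difference 1.29), a median difference of 0.54 with 9 positive, and a mean relative level of 0.34, 0.57 and 0.62 on mutant arrays, against 0.29, 0.00 and -0.29 on control arrays. The delta cell list had none of 9 called, a median of 0.68 with 7 positive, and a mean relative level of 0.41, 0.70 and 0.73 on mutant arrays, against 0.22, 0.12 and -0.33 on control arrays. The part of these shifts in the results below was not tested. In whole islets, fewer cells of a type and less RNA per cell cannot be told apart.

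The probes behind the results differ in kind, so the last 30 bases of 5 of the 60-base probes are shown 5′ to 3′, with capitals where the whole probe's longest run of only G and T (the first, where several are as long) falls in the bases shown. A probe with no capitals has that run in its other bases. The probes of Ero1lb and Pam are given because these genes were called, and the others because their readings of 1 gene differ.
Ero1lb: agattgtaccTGGTGccataacaatgtgaa
Pam: TGGTTTTTTGGTTTTGGTTTTGGTTTGGTT
Pcsk2, brighter probe: tttgctcgctgtcaatgattattttcacta
Pcsk2, dimmer probe: aTTTTaaaaactgaaaagcaagtgaataac
Cpe, dimmest probe: caaaaactccctcatcagctacctggagca
On mm9, the Ero1lb probe lies at chr13:12701235-12701294 on the plus strand and the Pam probe at chr1:99718052-99718111 on the minus strand. The Pcsk2 probes lie at chr2:143639649-143639708 and chr2:143641856-143641915 on the plus strand, and the dimmest Cpe probe at chr8:67085401-67085460 on the minus strand. Exon and UTR positions on mm9 were not used here. The Pam probe holds a run of 33 bases of only G and T, against a run of 5 in the Ero1lb probe.

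Of the 9 genes, 2 were called, Ero1lb lower and Pam higher in mutant islets. Over all genes tested, 2.53% were called, 1.41% higher and 1.12% lower. For 5 of the 9 genes the mutant and control arrays did not overlap, with Pam and Prdx4 higher and Ero1lb, Ero1l and Pcsk1 lower on every mutant array, against 26.3% of all genes tested. An unadjusted p under 0.05 was reached by 4 of the 9, against 20.2% of all genes. The median difference of the 9 was 0.14, against -0.03 for all genes tested.

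**Figure D1:**
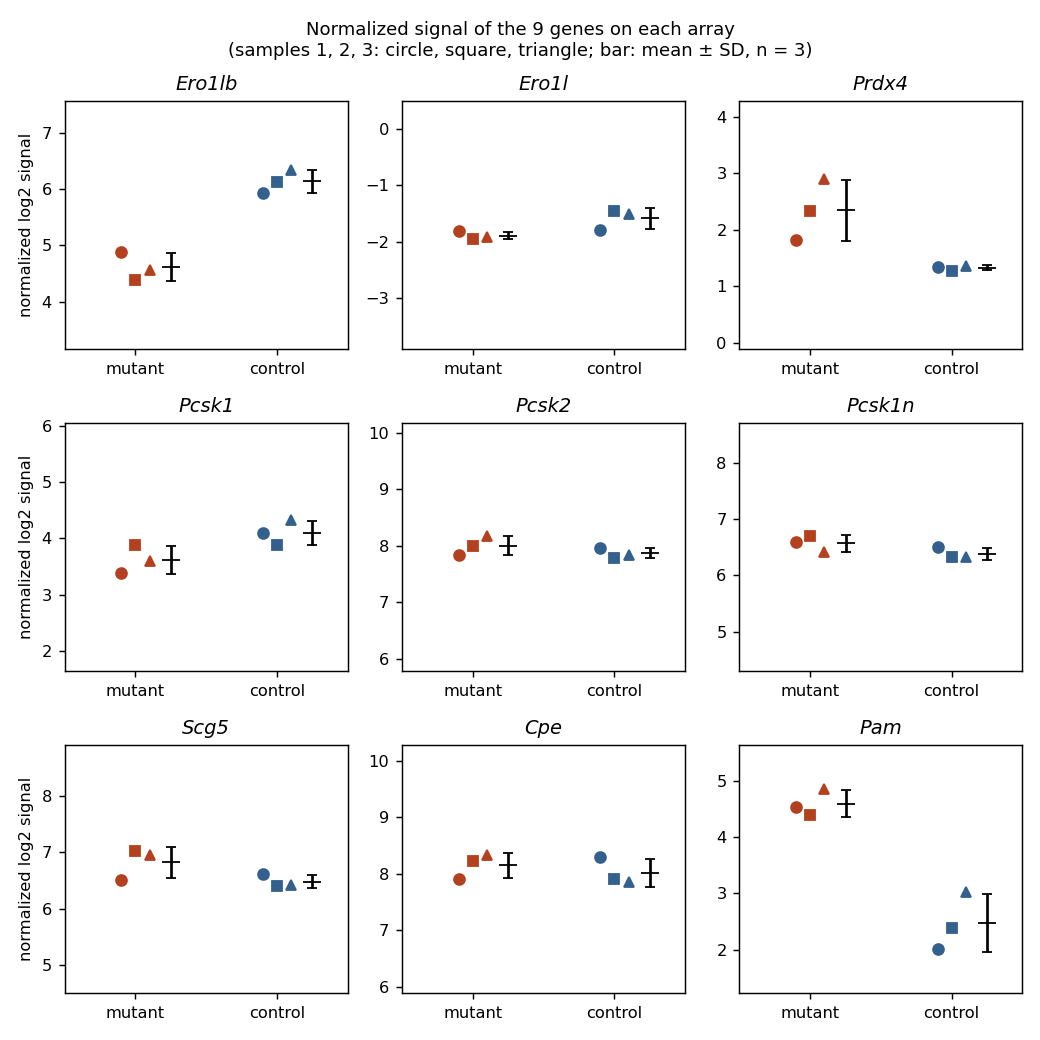
Level of each of the 9 genes on each array, as normalized log2 signal, with mutant arrays left of control arrays. Points are single arrays (circle, square and triangle for samples 1, 2 and 3), bars are means with SD, and each panel spans the same log2 range. Mutant arrays of Ero1lb lie below and those of Pam above all control arrays, while Pcsk2, Pcsk1n, Scg5 and Cpe overlap.

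Among the folding enzymes, Ero1lb, now named Ero1b, is the oxidase of the pair that is enriched in the pancreas. Its level was 4.88, 4.39 and 4.57 in mutants 1 to 3, against 5.94, 6.13 and 6.34 in controls 1 to 3. Each mutant sample was below each control sample, by about 1 log2 unit at the closest. The means were 4.61 ± 0.25 in mutants and 6.13 ± 0.20 in controls (SD, n = 3 each), a difference of -1.52 (SE 0.17, 95% interval -1.94 to -1.10) or 2.87-fold lower, which limma called with an adjusted p of 0.0210. The difference was -1.46 within slide 1 and -1.35 within slide 2, and -1.40 with slide as a block (limma adjusted p = 0.0168). The difference stayed between -1.65 and -1.41 when each sample was left out in turn. The limma adjusted p then exceeded 0.05 without mutant 2 (0.0919), mutant 3 (0.0668), control 2 (0.101) or control 3 (0.102). With the acinar mean as a covariate, the difference was -1.46 and the limma adjusted p 0.0589.

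Ero1l, now Ero1a, is the broadly expressed oxidase of the same family. Its level was -1.81, -1.95 and -1.91 in mutants, against -1.80, -1.46 and -1.51 in controls. All mutant samples were lower, but mutant 1 and control 1 differed by little. The difference of -0.30 (SE 0.13, 95% interval -0.61 to 0.01) was not called (limma adjusted p = 0.261). Per array, the change of Ero1lb relative to that of Ero1l was -1.03, -1.39 and -1.24 in mutants, against 0.01, -0.13 and 0.12 in controls. Ero1lb was thus further below its control level than Ero1l on all mutant arrays, by 1.22 on average.

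Prdx4 is the peroxiredoxin of the endoplasmic reticulum, which uses hydrogen peroxide to oxidize disulfide isomerases. Its level was 1.82, 2.33 and 2.90 in mutants, against 1.35, 1.27 and 1.36 in controls. The control samples lay close together, and the mutant samples were all higher but spread by about 1 log2 unit. The difference was 1.02 (SE 0.27, 95% interval 0.37 to 1.68), 2.03-fold higher, and was not called (limma adjusted p = 0.112). It was 1.27 within slide 1 and 0.51 within slide 2. The order of the mutants, with mutant 3 highest and mutant 1 lowest, was also their order in the acinar mean given above. In controls, whose Prdx4 levels hardly differed, Prdx4 was lowest in control 2 and highest in control 3, which also had the highest control acinar mean. Mutant 1, with the lowest acinar mean of the 6 arrays (-0.81), had a Prdx4 level of 1.82. With the acinar mean as a covariate the Prdx4 difference was 0.78 (limma adjusted p = 0.0823). Whether acinar RNA had a part in the Prdx4 difference was not tested.

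The Ero1b promoter is shown because Ero1lb was called. It gives the 250 bases before the start from RefSeq on GRCm38.p6, chr13:12565633-12565882 on the plus strand. Capitals mark a match to the endoplasmic reticulum stress response element, which is CCAAT and CCACG with any 9 bases between them and here reads on the other strand, at bases 201 to 183 before the start.
Ero1b: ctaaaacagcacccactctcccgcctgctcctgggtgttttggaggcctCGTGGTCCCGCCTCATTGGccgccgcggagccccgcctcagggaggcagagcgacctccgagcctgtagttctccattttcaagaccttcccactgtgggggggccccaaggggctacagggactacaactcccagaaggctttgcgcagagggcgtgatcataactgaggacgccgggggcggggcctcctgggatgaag
The element, bound by Atf6 together with the CCAAT factor, was searched on both strands and was found in 0.113% of 32851 promoters of that length and in 1 of the 9 promoter entries of the 8 members that had one. CCAAT, which is part of the element, was in 33.8% of promoters and 3 of the 9 entries. TAAT, a core of homeodomain sites, was in 54.9% and 3 of the 9, and TAATTA in 4.84% and none of the 9. The element was looked at after the Ero1lb values were seen. Of 35 genes with a match, 23 were tested and 2 were called, while 2.53% of all genes tested were called. The 2 were Ero1lb, whose call prompted the search, lower, and Acacb, an acetyl-CoA carboxylase, higher. Where a current symbol had several gene names, the one with the smallest p was kept. The median difference of the 23 was -0.04, against -0.03 for all genes. Genes with a match lay on both sides of 0, and 10 of the 23 were positive. The chaperone Hspa5 was at 0.26 (limma adjusted p = 0.484) and the disulfide isomerase Pdia6 at 0.37 (limma adjusted p = 0.448). Derl3 was at 0.63 (limma adjusted p = 0.144) and higher on every mutant array, and Creld2 was at 0.62 (limma adjusted p = 0.306). Hsp90b1 was at 0.34 (limma adjusted p = 0.386) and Syvn1 at 0.34 (limma adjusted p = 0.339). The co-chaperone Dnajc3 was at -0.50 (limma adjusted p = 0.144), and the lectin chaperones Calr and Canx were at -0.17 (limma adjusted p = 0.571) and -0.12 (limma adjusted p = 0.541). Calr4 was well above background on 1 of 3 mutant arrays and on all 3 control arrays, with mean levels of -7.63 in mutants and -5.53 in controls (limma adjusted p = 0.129).

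Among the convertases, Pcsk1 starts the cutting of proinsulin. Its level was 3.38, 3.88 and 3.60 in mutants, against 4.10, 3.89 and 4.32 in controls. Each mutant sample was below each control sample, but mutant 2 and control 2 lay almost together. The difference was -0.48 (SE 0.18, 95% interval -0.91 to -0.05), 1.40-fold lower, and was not called (limma adjusted p = 0.209). It was -0.36 within slide 1 and -0.72 within slide 2.

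Pcsk2, the second islet convertase, gave a different reading by probe. Its brighter probe had levels of 7.85, 7.997 and 8.17 in mutants, against 7.97, 7.79 and 7.84 in controls, with a difference of 0.14 (95% interval -0.16 to 0.44, limma adjusted p = 0.570). Its groups overlapped. Its dimmer probe, 2207 bases further along the chromosome, had levels of 4.94, 4.73 and 4.83 in mutants, against 4.98, 5.15 and 5.33 in controls. All mutant samples were lower on that probe, with a difference of -0.32 (SE 0.13, 95% interval -0.64 to -0.01). Fitted over all probes, of which 2.75% were called, it was not called (limma adjusted p = 0.234). The brighter probe read at 63.0% to 86.7% of the scanner's saturation value over the 6 arrays, and the dimmer one at 6.50% to 15.4%. With quantile normalization the difference of the brighter probe was -0.19, so the direction for Pcsk2 was not settled.

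The helper proteins of the convertases did not pass the test. Pcsk1n encodes proSAAS, which inhibits Pcsk1, and had levels of 6.60, 6.69 and 6.41 in mutants, against 6.51, 6.32 and 6.33 in controls. Mutant 3 lay within the controls, and the difference was 0.18 (95% interval -0.12 to 0.48, limma adjusted p = 0.456). Scg5 encodes a chaperone that Pcsk2 needs to become active, and had levels of 6.51, 7.02 and 6.95 in mutants, against 6.62, 6.40 and 6.43 in controls. Mutant 1 lay below control 1 and the other mutants above all controls, with a difference of 0.35 (95% interval -0.06 to 0.75, limma adjusted p = 0.310). That difference was 0.37 within slide 1 and 0.10 within slide 2, and 0.13 with quantile normalization. Scg5 was lowest on mutant 1 and controls 2 and 3, the arrays of slide 2, which also had the highest 75th percentile signal.

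Pcsk1 was also set against its inhibitor on each array, and its change was -0.93, -0.53 and -0.53 relative to that of Pcsk1n in mutants, against -0.13, -0.14 and 0.27 in controls. All mutant arrays were lower, with a mean difference of -0.66. Relative to Pcsk2, the change of Pcsk1 was -0.70, -0.35 and -0.81 in mutants, against -0.11, -0.13 and 0.24 in controls, a mean difference of -0.62. That mean was -0.16 with the dimmer Pcsk2 probe. For Pcsk2 relative to Scg5, the values were -0.05, -0.41 and -0.16 in mutants, against -0.04, 0.01 and 0.03 in controls, a mean difference of -0.21, and mutant 1 and control 1 were hardly apart. Taking a constant off every log2 level of an array leaves such differences unchanged, and they were the same with scaling to the median. They were not the same with quantile normalization, where the mean for Pcsk1 relative to Pcsk2 was -0.36 in place of -0.62. A probe near saturation cannot report a higher level, so the Cpe pair may still vary with the brightness of the array. The part of brightness in that pair was not tested. All 5 pairs compared here, those of Ero1lb with Ero1l and of Cpe with Pam included, gave an exact two-sided permutation p of 0.1. That is the smallest that 20 labellings allow, and the permutation p stayed 0.1 after adjustment over the 5 pairs. Cpe was read by a probe with saturated pixels on 6 arrays (3 mutants, 3 controls), and Pcsk2 by its brighter probe. With the dimmer Pcsk2 probe, mutant and control arrays overlapped for its pairs with Pcsk1 and with Scg5. No share of other gene pairs that separate was computed.

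**Figure D2:**
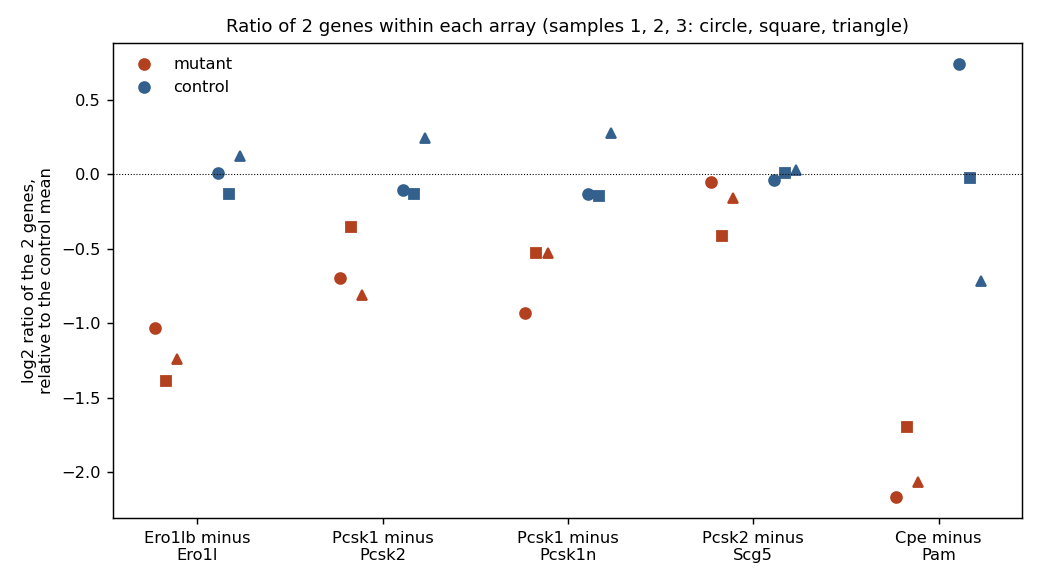
Change of the first gene of each of 5 pairs relative to the second, per array, as a log2 value relative to the control mean, with mutant arrays left of control arrays. In each pair the mutant arrays lie below the control arrays, by 1.98 on average for Cpe and Pam and by 0.21 for Pcsk2 and Scg5. Cpe is drawn from its brightest probe, which had saturated pixels on 6 arrays. Pcsk2 is drawn from its brighter probe, and with its dimmer probe the groups overlap for its pairs with Pcsk1 and with Scg5.

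Cpe, the carboxypeptidase that trims the basic residues left by the convertases, was read by 3 probes. Its brightest probe had levels of 7.90, 8.23 and 8.33 in mutants, against 8.30, 7.90 and 7.85 in controls, which overlapped (difference 0.13, 95% interval -0.30 to 0.57, limma adjusted p = 0.702). That probe had saturated pixels on 6 arrays, at 93.2% to 99.4% of the saturation value, and a spot at that value cannot report a higher level. Its signal before scaling was 575460, 553755 and 520769 on mutant arrays, against 605543, 592475 and 601043 on control arrays, lower on every mutant array. The 75th percentile signal taken off was 2407, 1843 and 1622 on mutant arrays, against 1918, 2480 and 2597 on control arrays. A second bright probe, which shares 8 bases with the first, had saturated pixels on 3 arrays and differed by 0.22 (limma adjusted p = 0.615, fitted over all probes). The dimmest probe, 14000 bases away, had no saturated pixels and levels of 5.35, 5.27 and 5.05 in mutants, against 5.38, 5.17 and 5.32 in controls. Its groups overlapped, and the difference was -0.07 (95% interval -0.37 to 0.24, limma adjusted p = 0.786).

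Pam, the enzyme that amidates peptides and needs copper and ascorbate, differed most among the 9 genes. Its level was 4.52, 4.39 and 4.85 in mutants, against 2.02, 2.38 and 3.03 in controls. Each mutant sample was above each control sample by more than 1 log2 unit, and the controls spread more than the mutants. The means were 4.59 ± 0.24 in mutants and 2.48 ± 0.51 in controls (SD, n = 3 each), a difference of 2.11 (SE 0.28, 95% interval 1.43 to 2.79) or 4.32-fold higher, which limma called with an adjusted p of 0.0277. The difference was 2.60 within slide 1 and 1.82 within slide 2, and 2.21 with slide as a block (limma adjusted p = 0.0390). When each sample was left out in turn it stayed between 1.88 and 2.39. The limma adjusted p exceeded 0.05 without mutant 1 (0.0638), mutant 2 (0.0988), mutant 3 (0.0739), control 2 (0.118) or control 3 (0.0503). With the acinar mean as a covariate the difference was 1.99 and the limma adjusted p 0.0713. Set against Pam on each array, the change of Cpe was -2.16, -1.70 and -2.07 in mutants, against 0.74, -0.02 and -0.72 in controls, a mean difference of -1.98 with the brightest Cpe probe and -2.18 with the dimmest.

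Because the Pam probe is all G and T in the part shown above, other probes with a run of at least 25 such bases were read, a check chosen after the Pam values were seen. Of 94 tested probes with such a run, 2 were called, while 2.75% of all probes tested were called. The 2 were Pam, which prompted the check, and Cd44, a cell adhesion receptor, both higher. The other 93 had a median difference of 0.27, against -0.03 over all probes tested, and 67 of the 93 were positive. Their range was -0.80 to 1.48, so the Pam difference was the highest of the 94. Their median level relative to controls was 0.31, 0.12 and 0.26 on mutant arrays, against 0.02, -0.08 and 0.05 on control arrays. Pam was measured by this 1 probe only.

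**Figure D3:**
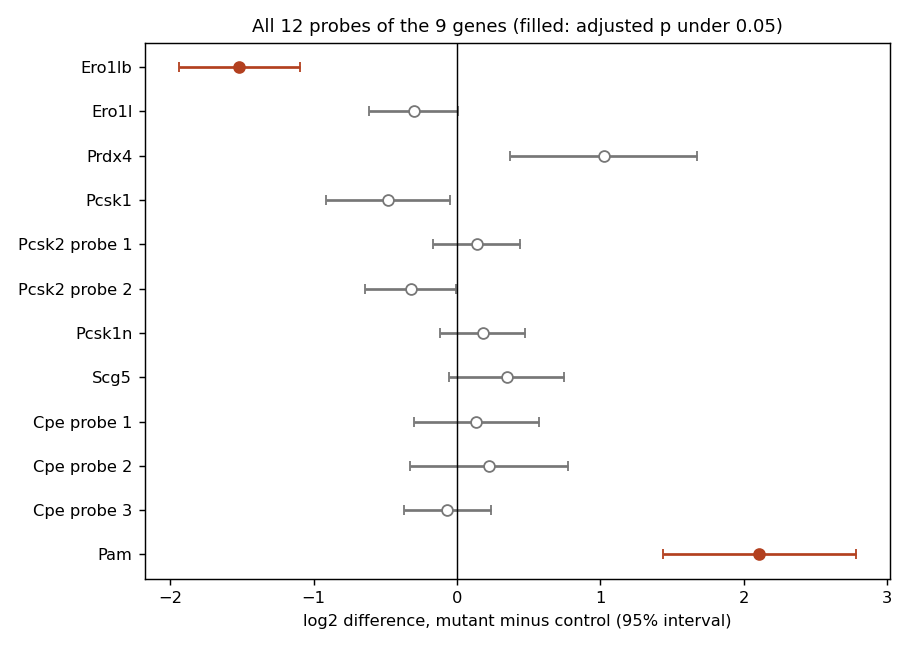
Log2 difference, mutant minus control, of each of the 12 probes with its 95% interval from the limma fit over all probes, filled where called. The Ero1lb probe lies at -1.52 and the Pam probe at 2.11, and the Pcsk2 probes lie on either side of 0.

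**Figure D4:**
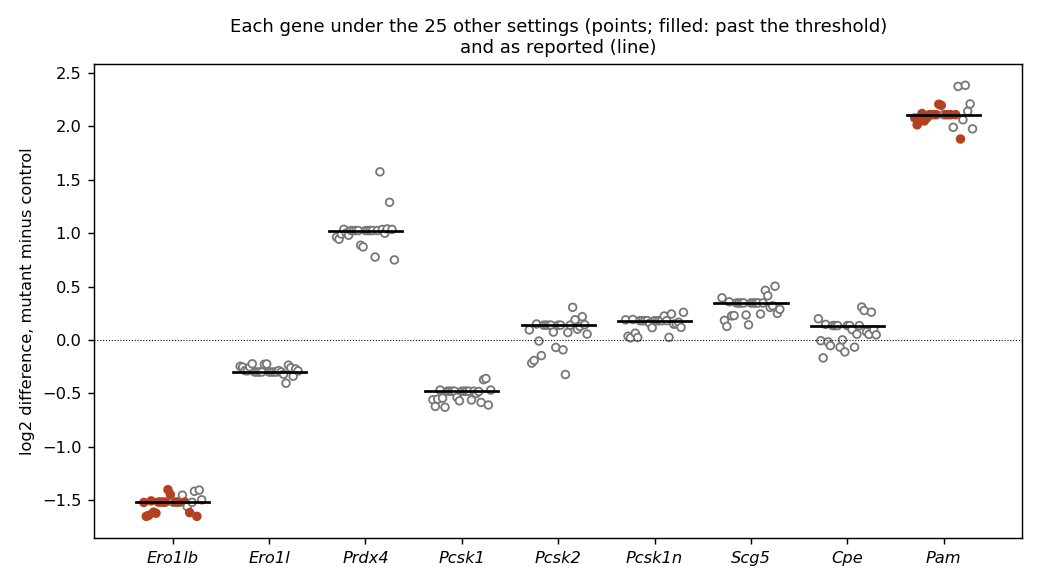
Log2 difference, mutant minus control, of each of the 9 genes as reported (line) and in 25 other settings (points, filled where past the threshold). Ero1lb stays between -1.65 and -1.40 and Pam between 1.88 and 2.39, while Pcsk2 and Cpe fall on both sides of 0.

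The 3 genes with profiles most like that of Ero1lb over the 6 arrays, by Euclidean distance after centring, were Pid1 (distance 0.24, difference -1.46), BC039632, now Prss53 (distance 0.31, difference -1.73), and Lass3, now Cers3 (distance 0.32). The Lass3 probe was well above background on all 3 control arrays but on no mutant array, so it has only a bound, at least 1.27-fold lower in mutants (measured means -7.36 in mutants and -5.91 in controls, limma adjusted p = 0.0435). Those most like Pam were 4931429I11Rik, now Jhy (distance 0.61, difference 2.17), Gm567 (distance 0.70, difference 2.14) and Gtf2a1l (distance 0.80, difference 1.68). Their differences resemble those of Ero1lb and Pam because likeness was the rule that picked them, and they are given as a description.

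The other genes of the pathway mostly did not pass the test. The counts of the lists below stand beside shares over all genes tested, of which 2.53% were called and 20.2% had an unadjusted p under 0.05. Of 21 further folding and disulfide enzymes, none was called, 6 had an unadjusted p under 0.05, and the median difference was 0.17 with 15 positive (0.21 within slide 1 and 0.10 within slide 2). The smallest p-values there belonged to the disulfide isomerase Pdia4, at 1.43, 1.66 and 1.22 in mutants, against 1.17, 0.81 and 0.82 in controls (difference 0.50, limma adjusted p = 0.173), and to Txndc11 (difference 0.39, limma adjusted p = 0.199). Of 25 endoplasmic reticulum chaperones and signal peptide factors, none was called, 6 had an unadjusted p under 0.05, and the median was 0.22 with 21 positive. That median was 0.23 within slide 1 and 0.0019 within slide 2, and the mean level relative to controls was -0.03, 0.27 and 0.33 on mutant arrays, against 0.09, -0.11 and 0.02 on control arrays. Mutants 2 and 3, where it was higher, also had the higher acinar means given above, whose part was not tested. The smallest p-values belonged to Dnajc3, a co-chaperone of Hspa5, at the difference given above, and to Sil1, the nucleotide exchange factor of Hspa5, with a difference of 0.30 (limma adjusted p = 0.201).

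Of 18 tested convertases and processing peptidases out of 19 listed, 1 was called higher and none lower, with a median of 0.04. It was Cpn1, a carboxypeptidase of blood plasma, at 2.15, 2.27 and 2.13 in mutants, against 1.64, 1.31 and 1.32 in controls (difference 0.76, limma adjusted p = 0.0461). Of 24 prohormones and granins, 1 was called higher and none lower, and 7 had an unadjusted p under 0.05. Their median was 0.26 with 19 positive (0.14 within slide 1 and 0.05 within slide 2). The called gene was Cartpt, a prohormone cut by both convertases, at 0.05, 0.04 and 0.48 in mutants, against -1.82, -1.86 and -2.52 in controls. The groups did not overlap, and the difference was 2.25 (SE 0.24), 4.77-fold higher (limma adjusted p = 0.0181). Levels of the main islet prohormones overlapped, with Ins1 at 0.26 (limma adjusted p = 0.481), Ins2 at 0.25 (limma adjusted p = 0.702) and Iapp, an amidated peptide, at 0.26 (limma adjusted p = 0.673). The Ins1 probe had saturated pixels on 5 arrays and read at 90.2% to 100.03% of the saturation value. Ins2 read at 61.6% to 81.8% and Iapp at 50.4% to 67.2%, both with no saturated pixels. Of these genes, only Ins1 carries the saturation limit given for the bright Cpe probes. Levels of Ins1, Ins2 and Iapp were all lowest on mutant 1 and controls 2 and 3, the arrays of slide 2, which also had the highest 75th percentile signal. Within slide 1 the differences were 0.13 for Ins1, 0.11 for Ins2 and 0.09 for Iapp. Within slide 2 they were 0.10 for Ins1, -0.13 for Ins2 and -0.08 for Iapp. The parts of slide and of scaling in their differences were not tested and cannot be told apart here.

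Of 23 tested genes of granule acidification and of zinc, copper and ascorbate supply out of 24 listed, 1 was called lower and none higher, and the median was -0.16. It was Slc30a8, the zinc transporter of insulin granules, at 5.57, 5.19 and 5.29 in mutants, against 6.33, 6.29 and 6.30 in controls. Every mutant sample was lower, with a difference of -0.96 (SE 0.13, limma adjusted p = 0.0282). The copper pump Atp7a, which supplies copper to Pam, was at -0.66 (limma adjusted p = 0.146), and the copper importer Slc31a1 at 0.03 (limma adjusted p = 0.922). Leaving out samples in turn, Cartpt kept an adjusted p under 0.05 in 2 of 6 limma fits (without mutant 1 or control 1). Cpn1 did so in 1 of 6 (without control 1) and Slc30a8 in 1 of 6 (without mutant 1).

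**Figure D5:**
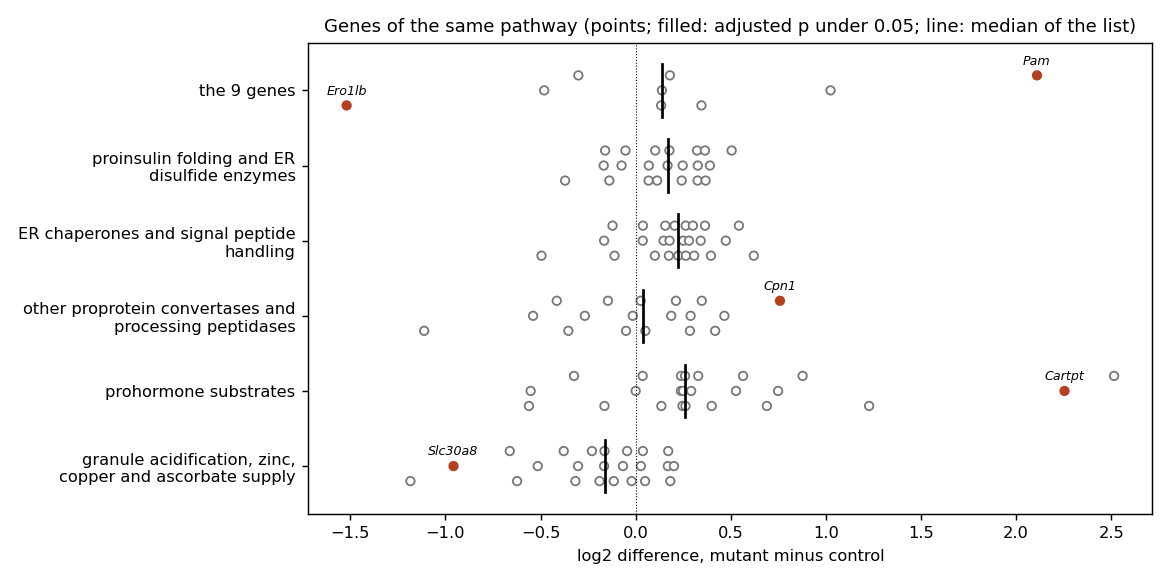
Log2 difference, mutant minus control, of every tested gene in the 5 pathway lists and of the 9 genes, with called genes marked and the list medians drawn as lines. The list medians lie between -0.16 and 0.26, and the 9 genes include the called genes Ero1lb at -1.52 and Pam at 2.11.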

How the data were processed

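Islet RNA was hybridized to single-colour Agilent arrays, with 150 ng labelled with Cy3 per sample. Agilent Feature Extraction 10.7.3.1 was used, per the submitters' processing notes. Per the file headers, the deposited spot intensities had the background taken off and within-array trends removed, and were not scaled across arrays. The same files give the software's other values, flags for saturated or outlying spots and for detection above background, as deposited. A deposited table of equalized intensities, whose method is not given in the sources used here, served as an alternative. Its scale is linear and uncentred, its rank correlation with the median spot signal was at least 0.999, and its column medians were 272.8, 274.5 and 274.55 in mutants 1 to 3, against 270.15, 266.95 and 268.3 in controls 1 to 3.

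Spots of a probe were averaged as log2 intensity, less the array's 75th percentile. Tests covered 28361 of 39429 probes, those detected well above background on all arrays of a group. Each gene name took its tested probe of highest mean, and limma 3.58.1 in R 4.3.3 (with version 1.17.8 of data.table) compared mutants with controls. Precision is limited by the number of arrays, and p-values measure the spread between pooled samples that the labels call biological replicates. The share of probes detected was 66.8%, 63.9% and 74.4% on mutant arrays, against 73.4%, 75.6% and 76.3% on control arrays. Current symbols came from the RefSeq gene list on GRCm38.p6, matched by accession for 15528 of the tested genes, and promoters from the same build.

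The members, lists and other settings were chosen with earlier results of these data known. The rule named the 9 genes with all their probes, the 3 genes with the nearest profile to each called one, called members of each pathway list or its 2 smallest p-values, and Nkx6-1. The other named prohormones, copper transporters and genes with a stress element fall outside the rule and were added after their values were seen. The method was run on simulated data with independent noise on each array. Those data lacked the shared slide and acinar shifts seen here, so the run does not bear on the calls. Of the marker lists not given in the text, no gene was called among 3 PP and epsilon cell, 12 duct, 12 endothelial, 15 leukocyte or macrophage, 14 mesenchyme or stellate, and 6 Schwann or glial genes.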

Additional observations from a re-analysis of the deposited data

How the results depend on the processing

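Of 25 other settings, Ero1lb was lower in 25 and past the threshold in 18, and Pam was higher in 25 and past it in 17. Prdx4, Pcsk1n and Scg5 stayed positive and Ero1l and Pcsk1 negative in all 25, none ever past the threshold. Both calls ended with a replicate block (Ero1lb limma adjusted p = 0.155, Pam 0.105), where no gene was called (limma, 0 of 22775, with 3163 at an unadjusted p under 0.05). Same-numbered samples deviated from their group means with correlations of -0.23, -0.19 and -0.03. Each such pair was split between slide 1 and slide 2, so these values cannot show whether a number marks a litter. Mutant and control arrays on the same slide had correlations of 0.08 to 0.23. No label ties a number to a litter, and the numbers were not used as pairs. Both calls also ended with the acinar covariate (138 genes called, 0 of the 9). Without both mutant 1 and mutant 2, the arrays with the fewest probes above background, limma called 0 genes (3864 at an unadjusted p under 0.05) and 0 of the 9, with a lone mutant sample assumed to vary like the controls. At an adjusted p under 0.1, 1514 genes were called. With each sample left out in turn, 13 to 418 genes and 0 to 2 of the 9 were called (genes: 283, 20 and 72 without mutants 1 to 3, 418, 13 and 21 without controls 1 to 3). Fewer samples were in these fits. Pcsk2 turned negative with quantile normalization (-0.19), with normexp before it (-0.22), with slide as a block beside it (-0.071), with cyclic loess (-0.011), in the deposited table (-0.15), as the mean of its probes (-0.093) and on its dimmer probe (-0.32). Cpe turned negative in the same order of settings (-0.17, -0.0078, -0.11, -0.019 and -0.054), and without saturated spots or on its dimmest probe (-0.068 each). Among the pairs, Ero1lb relative to Ero1l was -1.40 with normexp and quantile normalization and in the deposited table. Pcsk1 relative to Pcsk2 was -0.36 with quantile normalization and -0.16 on the dimmer probe. Pcsk2 relative to Scg5 was -0.40 with normexp and quantile normalization, -0.44 as the mean of probes and -0.67 on the dimmer probe. All pair differences stayed negative in 16 settings each. Why values moved was not tested, apart from the saturation and probe values in the text.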
